A study of Mus musculus with 20 samples.

Results

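Long Ezh2 peaks are the autosomal Ezh2 peaks of 500 bp or more, selected on peak length alone in the peak lists of wild-type (WT) and SS mutant fibroblasts. There were 2898 of them among 809627 autosomal Ezh2 peaks in WT cells and 8153 among 1138246 in SS cells. Together these 11051 regions are a small part of the 4287160 autosomal peaks in the 10 lists of the series. The cells were C57BL/6 mouse embryonic fibroblasts (MEFs), primary connective-tissue cells from E13.5 embryos, grown in 10% serum to passage 4. Both Ezh2 libraries came from cells held quiescent by serum deprivation (0.1% serum for 72 h). The SS genotype is not spelled out in the labels, and no allele, promoter or transgene is named for either genotype. The comparison lists are pRb and the histone mark H3K27me3, each in arrested and proliferating WT and SS cells. Arrested H3K27me3 cells carry the serum-deprivation label, whereas arrested pRb cells are called confluence arrested in 1 field and serum deprived in another. Each combination of antibody, growth state and genotype has 1 library, so differences between genotypes lack replication and are given without a p-value.

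Ezh2 is the methyltransferase subunit of Polycomb repressive complex 2, which places methyl groups on lysine 27 of histone H3. The product, H3K27me3, marks repressed developmental genes in broad domains and is also found over some repeated sequences. pRb, the retinoblastoma protein, is a tumour suppressor that binds E2F transcription factors and chromatin regulators, and the series title links a tumour suppressor to silencing of endogenous retroelements in somatic cells. Positions below are in mm9 and counted from 1. No mm9 genome or annotation was used, so neither the sequence, the gene context nor the repeat content of the regions was analysed here.

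The long Ezh2 peaks differed little in median enrichment from Ezh2 peaks in general. The highest values of each list belonged to shorter peaks, which were 99.6% of the WT and 99.3% of the SS list. Because length chose the members, the values in this paragraph and the next are descriptions. Most Ezh2 peaks were short, with a median length of 50 bp in WT and 51 bp in SS cells. The long ones made up 0.358% of the WT and 0.716% of the SS list, and 2.18% and 4.07% of the covered length. Most of them lay close to the minimum. In WT cells the median was 560 bp, with quartiles of 525 and 624 bp, and 1934 of the 2898 were under 600 bp. In SS cells the median was 571 bp, with quartiles of 530 and 644 bp, and 5074 of the 8153 were under 600 bp. Only 24 WT and 109 SS peaks reached 1000 bp. The caller's fold enrichment over its background had a median of 3.51 for WT long peaks and 3.46 for all WT Ezh2 peaks. In the SS list these medians were 3.79 and 3.56. The -log10 q-value, the caller's confidence after adjustment for many peaks, had a median of 1.92 for long and 1.81 for all WT peaks, and of 2.62 and 2.27 in SS cells. Of the 500 peaks of highest -log10 q-value, 0 were long in WT and 4 in SS cells. These counts are too small to set apart from the long peaks' shares of 0.358% and 0.716% of the lists. The median length of these 500 was 54 bp in both lists. The highest -log10 q-value of a WT long peak was exceeded by 2869 shorter WT peaks, and the highest fold enrichment by 9846. In the SS list these numbers were 50 and 582. The long peaks themselves set these cutoffs, so the absence of long peaks above them is fixed and says nothing about depletion. Within the long sets, length and -log10 q-value were hardly related (Spearman's rho 0.0477 over 2898 WT and 0.0419 over 8153 SS peaks, which are not independent).

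SS cells held 2.81 times as many long Ezh2 peaks as WT cells, against 1.41 times for Ezh2 peaks of all lengths. The ratio was higher in the longer classes, with 1 step down at 200 bp. It was 1.31 for peaks under 100 bp, 1.57 for 100 to under 200 bp, 1.44 for 200 to under 300 bp, 2.06 for 300 to under 400 bp, 2.14 for 400 to under 500 bp, 2.62 for 500 to under 600 bp, 3.04 for 600 to under 800 bp, 4.28 for 800 to under 1000 bp and 4.54 for 1000 bp or more. The step at 500 bp was smooth. Just outside it, 369 WT and 893 SS peaks of 490 to under 500 bp had median fold enrichments of 3.50 and 3.81. Just inside, 316 WT and 761 SS peaks of 500 to under 510 bp had medians of 3.51 and 3.75. The excess in SS was spread over every autosome, from 2.33 times on chromosome 8 to 3.13 times on chromosome 2. The lists do not give sequencing depth, whose part in the ratio was not tested.

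**Figure D1:**
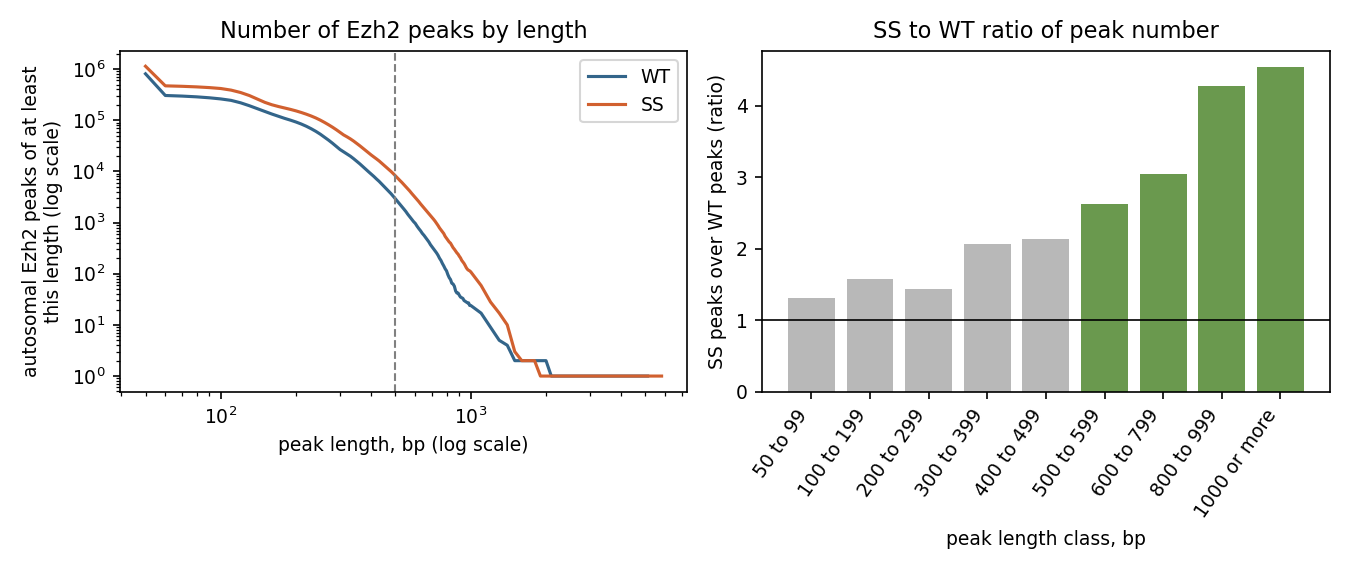
Left, number of autosomal Ezh2 peaks at or above each length in the WT and SS lists (both axes log scaled, dashed line at 500 bp). Right, SS peaks divided by WT peaks in each length class, from 1.31 under 100 bp to 4.54 at 1000 bp or more, with the classes of long peaks in green.

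The longest member was the same region in both genotypes. It measured 5160 bp in WT cells (chr17:39979963-39985122) and 5818 bp in SS cells (chr17:39979950-39985767), and no other member of either list was longer than 2084 bp. Its fold enrichment was low, 1.72 in WT and 2.33 in SS cells, and the WT value was the lowest of all WT long peaks. Its -log10 q-value of 16.4 was nonetheless the highest of the SS long peaks, and the WT value of 5.32 was the second highest. This region was also covered along its whole WT length by a peak of each of the 4 H3K27me3 lists and of the arrested WT pRb list, and was without a peak in the other 3 pRb lists. A second region found in both genotypes was chr6:3150786-3151549, 764 bp in WT and 767 bp in SS cells. It had the highest WT -log10 q-value, 5.70, and the third highest in SS cells, 13.9, with fold enrichments of 2.18 and 3.11. H3K27me3 peaks covered 82.6% to 100% of it in the 4 lists, and pRb peaks covered all of it in arrested WT and in proliferating SS cells only.

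Several of the next longest members had no long counterpart in the other genotype, which was the rule for long peaks of any length (2849 of 2898 in WT and 8105 of 8153 in SS cells). The 2084 bp WT peak at chr8:19905587-19907670 was met in SS cells by 4 peaks of at most 464 bp that covered 41.7% of it. A 1407 bp WT peak at chr2:107505947-107507353 met a single SS peak of 51 bp. Among SS peaks, the 1870 bp region at chr4:146902150-146904019 met 3 WT peaks of at most 267 bp. The 1539 bp region at chr1:145381000-145382538 met none. At these places a long peak of one list was matched by short peaks, or by none, in the other. Long counterparts did occur: the 1491 bp SS peak at chr11:3071378-3072868 overlapped a WT peak of 784 bp.

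The members of highest fold enrichment were mostly long in a single genotype, as were 2849 of all 2898 WT and 8105 of all 8153 SS long peaks. In WT cells they were chr16:95369338-95369872 at 5.61, chr4:14217381-14217941 at 5.43, chr13:19333554-19334099 at 5.15 and chr15:18239640-18240173 at 5.11. None of these 4 overlapped a peak of any of the other 9 lists, which held for 22.9% of all WT long peaks. The next WT member differed: chr11:39430010-39430656, at 5.09, was covered to 97.7% by an SS peak of 669 bp. In SS cells the highest value, 8.73, belonged to chr7:105208531-105209174, a 644 bp peak that H3K27me3 peaks covered by 26.6% to 54.8% and that met a WT Ezh2 peak of 79 bp. It was followed by chr6:35458062-35458585 at 6.98, chr9:17401434-17402050 at 6.80, chr7:132471942-132472488 at 6.69 and chr16:47811839-47812513 at 6.57. The WT peaks met by these 4 were 50 bp long or absent.

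The next comparison asked whether long Ezh2 peaks lay in the same places in both genotypes. They rarely did. Of the 2898 WT long peaks, 49 (1.69%, 95% Wilson interval 1.28 to 2.23%) overlapped an SS long peak by 1 bp or more. Of the 8153 SS long peaks, 48 (0.589%, interval 0.444 to 0.780%) shared sequence with a WT long peak. The same share over Ezh2 peaks of every length was 0.322% for WT peaks and 0.11% for SS peaks. Random placement of the same lengths, with each peak kept on its chromosome and within the 24020 autosomal bins of 100 kb that hold a peak in some list, gave an expected 0.407% of WT and 0.145% of SS long peaks. The observed shares were thus 4.15 and 4.07 times the expected ones, on a base of about 11.8 peaks expected. Placement within the peak's own 1 Mb window gave 2.96 and 2.90 times. The intervals reflect counting error alone and treat peaks as independent, which neighbours are not.

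Sharing was looser when SS peaks of any length were allowed. There 1124 WT long peaks (38.8%) met an SS Ezh2 peak, against 30.9% under placement and 11.5% over WT Ezh2 peaks of every length, which are shorter and so meet less. In the other direction 2410 SS long peaks (29.6%) met a WT Ezh2 peak, against 22.5% under placement and 8.15% over SS Ezh2 peaks of every length. The ratio to placement was higher for longer partners. For WT long peaks it was 1.10 with SS peaks under 100 bp, 1.41 with those of 100 to under 200 bp, 1.63 with 200 to under 500 bp and 4.15 with long ones. For SS long peaks the matching ratios were 1.16, 1.52, 1.74 and 4.07. SS peaks covered 8.52% of the sequence of WT long peaks, against 5.06% expected, and WT peaks covered 5.34% of SS long peaks, against 3.29%.

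**Figure D2:**
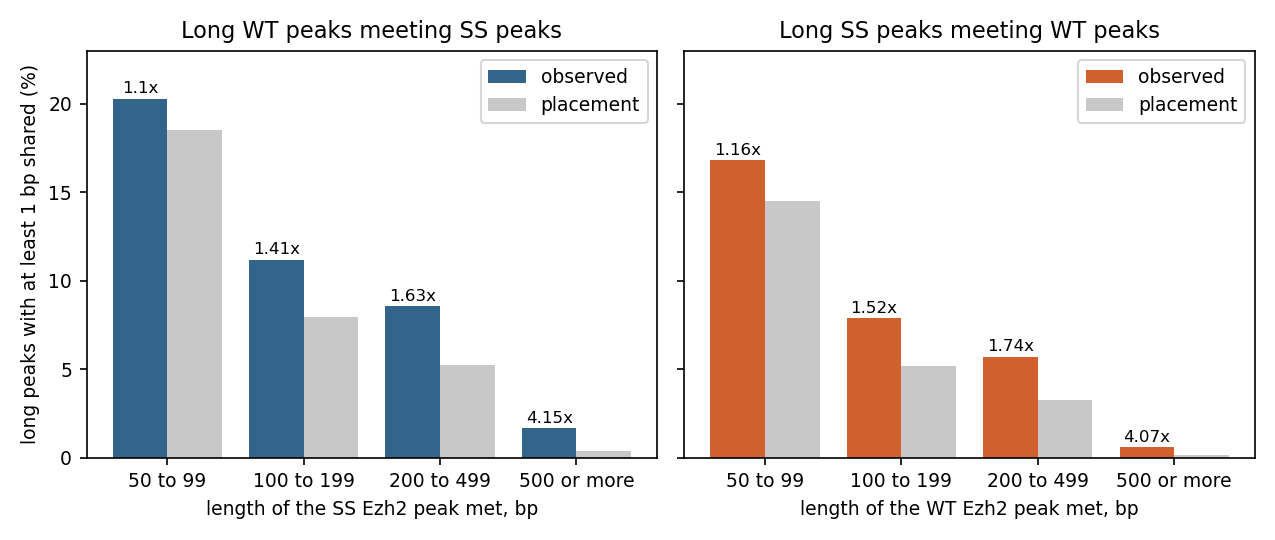
Share of long WT peaks (left) and long SS peaks (right) that meet an Ezh2 peak of the other genotype, by the length of the peak met. Coloured bars are observed shares, grey bars those under random placement, and the number above each pair is their ratio, which is highest for long partners (4.15 and 4.07).

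The shared regions differed from the others within each list. The 49 WT members had a median fold enrichment of 3.10, with quartiles of 2.68 and 3.59. The 2849 WT long peaks that were not shared had a median of 3.52 and quartiles of 3.29 and 3.79. In SS cells the medians were 3.32 for 48 shared and 3.79 for 8105 other peaks. The -log10 q-value did not move one way: its median was 2.20 for shared and 1.91 for other WT members, and 2.55 and 2.62 in SS cells. The median fold enrichment of shared members was thus lower in both lists, while their median lengths of 584 bp in WT and 650 bp in SS cells lay above the 560 and 571 bp of the others. Longer peaks meet more under placement too: 0.389% for WT peaks of 500 to under 600 bp and 0.675% for those of 1000 bp or more. After the regions on chromosomes 17 and 6, the largest shared lengths were 746 bp at chr5:15183770-15184916, 645 bp at chr8:19755709-19756420 and 632 bp at chr11:39430010-39430656. H3K27me3 peaks of proliferating SS cells held 57.1% of the WT and 58.3% of the SS shared members, beside 20.6% and 20.3% of all long peaks of each list. For proliferating WT H3K27me3 the shares were 46.9% and 45.8%, beside 16.7% and 17.0%, and for arrested WT H3K27me3 46.9% and 39.6%, beside 27.6% in both lists. Arrested SS H3K27me3 peaks held 12.2% and 18.8%, near the 14.2% and 15.4% of all long peaks. Arrested pRb peaks held 40.8% and 37.5% (WT list) and 42.9% and 39.6% (SS list), beside 14.8%, 15.0%, 24.6% and 23.6%. Proliferating pRb peaks held between 4 and 6 shared members of either genotype. These shares count neighbours separately: chr5:15100001-15200000 and chr8:19700001-19800000 held 6 shared WT members each. Proliferating SS H3K27me3 covered 43.8% and 61.6% of these bins.

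Much of the sharing fell in a small part of the genome. In the 240 bins of 100 kb most covered by the 4 pRb lists, which are 1% of bins and were picked without Ezh2 after the data had been seen, lay 31 of the 49 shared WT members and 30 of the 48 shared SS members. The same bins held 6.94% of WT and 3.99% of SS long peaks, against 2.00% and 1.68% of Ezh2 peaks of 200 to under 500 bp. Outside these bins 18 members of either list were shared, 1.71 times the placement value in both directions.

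Long Ezh2 peaks were then examined for clustering along chromosomes. On the chromosome scale their density varied little: in WT cells it ranged from 0.978 per Mb on chromosome 19 to 1.49 on chromosome 8, and in SS cells from 3.0 on chromosome 15 to 3.79 on chromosome 16. At short range they were clustered. In WT cells 178 long peaks (6.14%, interval 5.32 to 7.08%) had another long peak start within 10 kb, which was 2.57 times the 2.39% of an even spread. In SS cells 776 (9.52%, interval 8.90 to 10.2%) had one, 1.45 times the 6.57% of an even spread. The ratios are not comparable between lists of such different size: with as many SS as WT peaks the SS ratio was 2.18. That SS subset met arrested WT H3K27me3 in 901 of 2898 cases at 1.18 times placement, beside 2247 of 8153 at 1.17 for all SS long peaks. Its share under placement was thus higher, as it is for longer peaks, so 2.18 may reflect length as well as list size. Placement within 1 Mb gave 1.64 in WT and 1.2 in SS cells. The WT ratio was 4.58 in the higher 50% by -log10 q-value, and merging Ezh2 peaks within 1 kb, which makes a different and far larger set, took it to 0.975. Within 100 kb the ratios were 1.32 and 1.09. Without the 1% of bins most covered by pRb, the 10 kb ratios were 1.29 in WT and 1.25 in SS cells. Over 2385 windows of 1 Mb, the numbers of WT and SS long peaks had a Spearman's rho of 0.16, against 0.803 for Ezh2 peaks of all lengths. These windows share depth and mappability within a library, and long peaks are few per window.

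**Figure D3:**
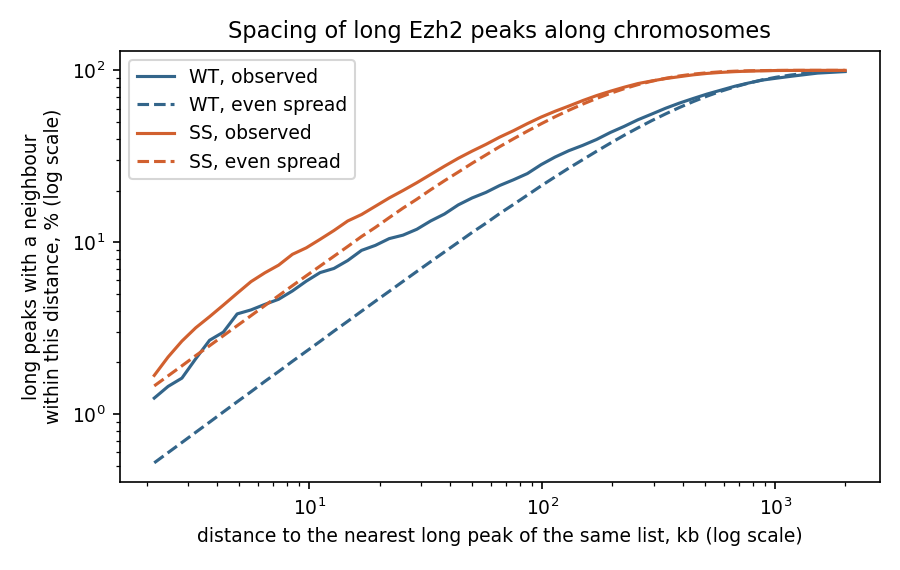
Share of long peaks whose nearest long peak of the same list starts within a given distance (both axes log scaled), in WT and SS cells. Solid lines are observed and dashed lines an even spread over each chromosome, and observed lies above even at 10 kb in WT (6.14% against 2.39%) and in SS cells (9.52% against 6.57%).

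A few bins of 100 kb held many long peaks. In WT cells 10 bins held 5 or more, where an even spread gives 0.00507, and these contained 74 of the 2898 members. In SS cells 17 bins did so against 0.702, with 131 of the 8153. Of the 16 WT and 46 SS bins with 4 or more, 9 were common to both lists, which is 56.2% of the WT and 19.6% of the SS bins. The fullest were chr8:19700001-19800000, with 11 long peaks in WT and 13 in SS cells, and chr5:15100001-15200000, with 8 and 13. Next came chr8:19900001-20000000 with 11 and 10, chr11:3000001-3100000 with 8 and 11, and chr5:14900001-15000000 with 7 and 8. One bin, chr3:25400001-25500000, was full in SS cells, with 8 long peaks and 2 in WT cells. Some of these bins adjoin. Along chr8:19700001-20100000 lay 29 WT and 25 SS long peaks, and along chr5:14800001-15300000 lay 27 and 30. By contrast, chr7:46400001-46700000 held 12 in SS and 1 in WT cells, and chr13:12800001-13100000 held 16 and 2. These longer stretches were picked with their counts in view.

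Coverage of these bins by the other lists varied from list to list. On chr8:19700001-19800000 the WT Ezh2 list covered 21.0% and the SS list 23.1%, where the median bin had 3.24% and 4.97%. The arrested pRb lists covered 12.6% (WT) and 31.5% (SS) of it, where the median bin had 3.11% and 5.53% and the 99th percentiles were 5.55% and 8.99%. H3K27me3 peaks covered 47.0% and 61.6% in proliferating WT and SS cells, where the median bin had 1.93% and 3.51%. These values lay below the 99th percentiles of all bins, 74.3% and 78.1%. Arrested SS H3K27me3 peaks covered 8.28%, where the median bin had 2.46%. On chr5:15100001-15200000 the arrested pRb lists covered 15.8% (WT) and 27.3% (SS), also above their 99th percentiles. H3K27me3 of proliferating cells covered 31.6% (WT) and 43.8% (SS) there, above the median bin and below the 99th percentiles. That of arrested SS cells covered 2.29%, below the median bin. On chr11:3000001-3100000 arrested SS pRb covered 6.34%, near its median of 5.53%. The other pRb lists lay above their 99th percentiles there. Arrested WT pRb covered 11.3%, and proliferating pRb 4.24% (WT) and 7.55% (SS), where the 99th percentiles were 1.28% and 1.66%. How many individual long peaks coincided differed between bins. An SS member was overlapped by 6 of the 8 WT members on chr5:15100001-15200000, by 6 of 11 on chr8:19700001-19800000, by 3 of 8 on chr11:3000001-3100000, by 2 of 11 on chr8:19900001-20000000 and by 1 of 7 on chr5:14900001-15000000.

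**Figure D4:**
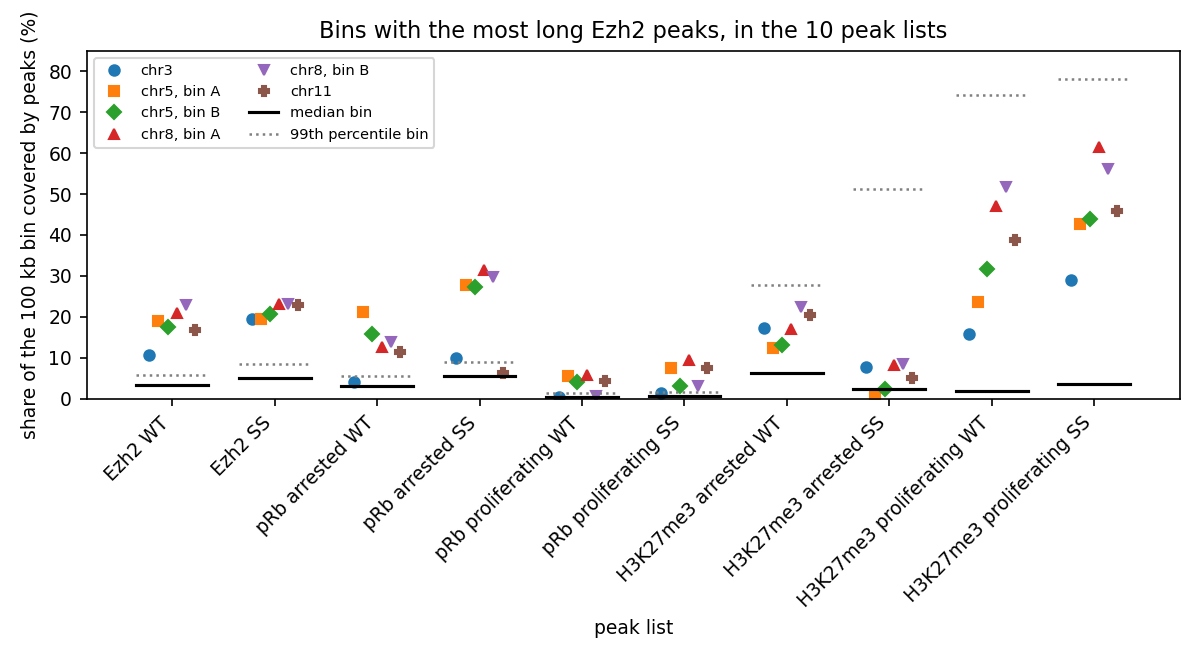
Share of each of the 6 bins with the most long Ezh2 peaks that is covered by peaks of each of the 10 lists. Black lines mark the median and dotted lines the 99th percentile of all bins. In the proliferating H3K27me3 lists all 6 bins lie above the median. All 6 bins lie below the 99th percentile in the 4 H3K27me3 lists. All but the chr3 bin lie above it in arrested WT pRb, and all but the chr11 bin in arrested SS pRb. Their high Ezh2 coverage follows from how they were chosen.

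The next question was how often long Ezh2 peaks lay in H3K27me3, the mark that Ezh2 makes. They did so slightly more often than placed at random. In arrested cells of the same genotype, 799 WT long peaks (27.6%, against 11.3% over all WT Ezh2 peaks) met an H3K27me3 peak, 1.19 times placement with an interval of 1.12 to 1.26. In SS cells 1257 long peaks (15.4%, against 8.37% over all SS Ezh2 peaks) did so, 1.31 times placement with an interval of 1.24 to 1.37. The shares depend on how much each H3K27me3 list covers, and placement takes this and the peaks' length into account. With lists of the other genotype, 412 WT long peaks (14.2%, against 8.4%) met arrested SS H3K27me3 and 2247 SS long peaks (27.6%, against 11.5%) met arrested WT H3K27me3, at 1.21 and 1.17 times placement. The matched genotype therefore did not have the higher value in WT cells. Lists of proliferating cells gave similar ratios. WT long peaks met proliferating WT H3K27me3 in 485 cases (16.7%, against 11.3%) and SS H3K27me3 in 597 (20.6%, against 13.8%), at 1.29 and 1.30 times placement. SS long peaks met them in 1383 (17.0%, against 11.3%) and 1652 cases (20.3%, against 13.8%), at 1.31 and 1.27 times.

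Shorter Ezh2 peaks set a scale for these ratios. WT Ezh2 peaks of 200 to under 500 bp met the 4 H3K27me3 lists at 1.15 to 1.23 times placement, and the intervals of the long set overlapped theirs in each list. SS peaks of 200 to under 500 bp did so at 1.14 to 1.21 times. There the long set lay higher with intervals apart in 3 lists. The ratios were 1.31 against 1.21 for arrested SS, 1.31 against 1.18 for proliferating WT and 1.27 against 1.19 for proliferating SS. Without the 1% of bins most covered by pRb, the SS long set stood at 1.32 (interval 1.25 to 1.39) for arrested SS. It stood at 1.26 (1.2 to 1.33) for proliferating WT and 1.23 (1.18 to 1.29) for proliferating SS. The shorter peaks over all bins had intervals of 1.19 to 1.23, 1.17 to 1.2 and 1.17 to 1.2. Only the arrested SS intervals then stayed clearly apart. With H3K27me3 peaks of 10 kb or more the placement value lay inside the Wilson interval in each of the 6 comparisons made. Proliferating WT H3K27me3 peaks of 10 kb or more held 77 WT long Ezh2 peaks (2.66%, against 2.63% over all WT Ezh2 peaks) and 237 SS ones (2.91%, against 2.65%), at 1.00 and 1.11 times placement. Proliferating SS peaks of that length held 110 (3.8%, against 3.17%) and 277 (3.40%, against 3.19%), at 1.19 and 1.08 times. Arrested SS peaks of that length held 13 (0.449%, against 0.397%) and 26 (0.319%, against 0.403%), at 1.04 and 0.744 times. With proliferating H3K27me3 peaks of 2 kb or more, WT long Ezh2 peaks stood at 1.12 times placement in the WT list (8.45%, against 7.35% over all WT Ezh2 peaks) and 1.14 in the SS list (10.2%, against 8.75%). SS long peaks stood at 1.16 (8.70%, against 7.38% over all SS Ezh2 peaks) and 1.18 times (10.5%, against 8.78%). Placement lay outside the interval in all of these but the first. With arrested H3K27me3 peaks of 2 kb or more it lay inside the interval in every comparison. WT long peaks stood at 1.21 times placement in the WT list (0.69%, interval 0.447 to 1.06%) and 0.93 in the SS list (2.62%, 2.1 to 3.27%). SS long peaks stood at 1.23 (0.699%, 0.54 to 0.905%) and 1.08 times (3.03%, 2.68 to 3.42%). Among members in H3K27me3, chr14:24428979-24430387 was a 1409 bp SS peak that arrested SS H3K27me3 covered wholly. Proliferating lists covered 98.5% in WT and 100% in SS, and neither WT Ezh2 nor any pRb list had a peak there. Similarly, chr13:53390625-53391879, a 1255 bp SS peak with no WT Ezh2 or pRb peak, was covered to 38.4% in arrested SS and wholly in both proliferating H3K27me3 lists. In all, 1279 WT members (44.1%) and 3670 SS members (45%) met at least 1 H3K27me3 list, against 36.2% and 36.5% under placement and 25.7% and 25.8% over all Ezh2 peaks of each list. All 4 were met by 109 (3.76%, against 1.68% over all WT Ezh2 peaks) and 327 (4.01%, against 1.71% over all SS Ezh2 peaks), for which no placement value was computed.

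The last comparison set long Ezh2 peaks beside pRb. In arrested cells of the same genotype 430 WT long peaks (14.8%, against 5.23% over all WT Ezh2 peaks) met a pRb peak, 1.17 times placement with an interval of 1.07 to 1.28. In SS cells 1927 (23.6%, against 9.1% over all SS Ezh2 peaks) did so, also 1.17 times, with an interval of 1.12 to 1.21. Across genotypes, 714 WT long peaks (24.6%, against 8.97%) met arrested SS pRb and 1224 SS long peaks (15.0%, against 5.39%) met arrested WT pRb, at 1.23 and 1.16 times placement. With proliferating pRb the numbers were small. WT long peaks met the WT list in 106 cases (3.66%, against 0.868%) and the SS list in 124 (4.28%, against 1.13%), at 1.57 and 1.35 times placement. SS long peaks met them in 233 (2.86%, against 0.895%) and 297 cases (3.64%, against 1.18%), at 1.2 and 1.13 times. For the WT long peaks the interval with proliferating WT pRb, 1.30 to 1.89, lay above that of WT peaks of 200 to under 500 bp, 1.12 to 1.24. The same held for arrested SS pRb, with 1.16 to 1.31 against 1.12 to 1.15. Without the 1% of bins most covered by pRb both intervals overlapped those of the shorter peaks over all bins, at 1.25 (1.0 to 1.55) and 1.12 (1.04 to 1.2). The other intervals of the long sets overlapped those of the 200 to under 500 bp sets, and no difference between sets was tested.

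**Figure D5:**
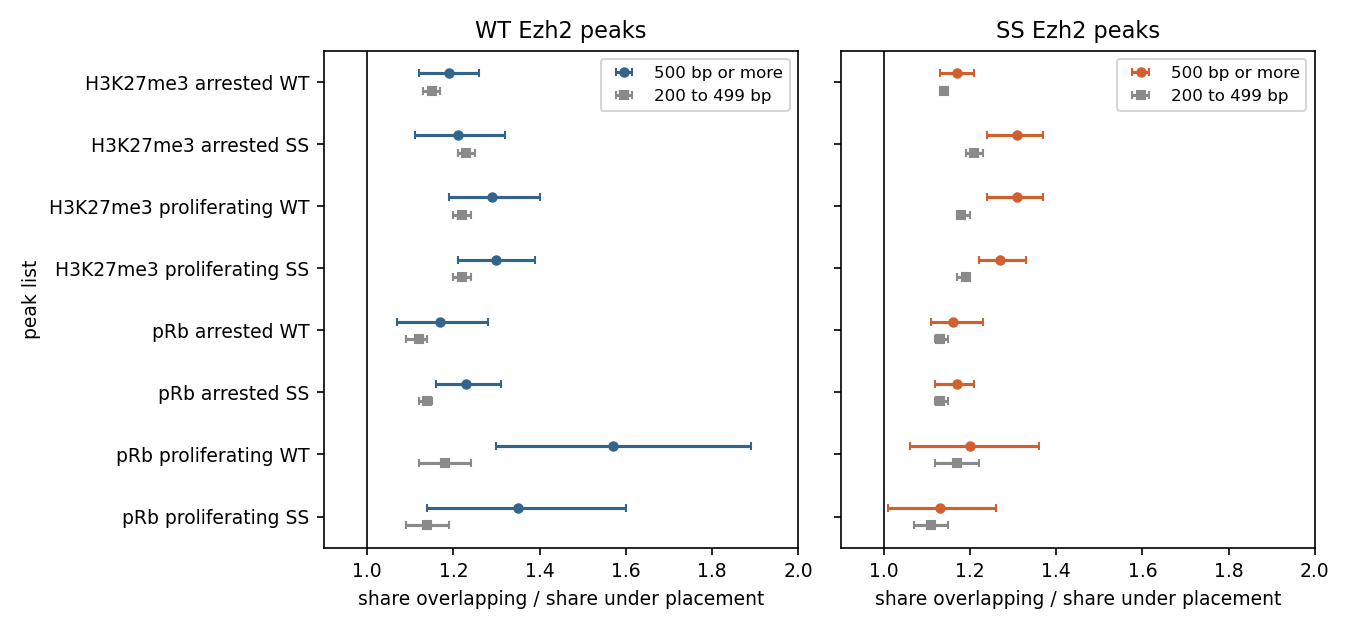
Share of Ezh2 peaks that meet each H3K27me3 and pRb list, divided by the share under random placement of the same lengths, for WT (left) and SS (right) peaks. Circles are peaks of 500 bp or more, squares those of 200 to under 500 bp, bars are 95% Wilson intervals of the share, and the long sets lie between 1.13 and 1.57.

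The overlap with pRb was strongest where pRb peaks were long too, and this was set by few places. Of the WT long Ezh2 peaks 37 (1.28%, against 0.11% over all WT Ezh2 peaks) met an arrested WT pRb peak of 500 bp or more, 7.38 times placement. Another count, with long arrested SS pRb peaks, was 90 (3.11%, against 0.473%), 4.25 times placement. For SS long Ezh2 peaks the counts were 38 (0.466%, against 0.11%) and 132 (1.62%, against 0.455%), at 2.68 and 2.20 times. In the 1% of bins most covered by pRb lay 31 of the 37, 70 of the 90, 27 of the 38 and 74 of the 132. Outside these bins the ratios were 1.42, 1.11, 0.888 and 1.09, on 6, 20, 11 and 58 peaks. With pRb peaks of any length, those of the same genotype gave 1.05 outside them in WT and 1.12 in SS cells. The bins were picked by pRb coverage, so their removal takes pRb overlap away by construction, and the placement area was reduced in the same way. For arrested H3K27me3 of the same genotype the ratios outside these bins were 1.15 in WT and 1.32 in SS cells. With proliferating H3K27me3, WT long peaks stood at 1.16 (WT list) and 1.17 (SS list) outside them, beside 1.29 and 1.30 over all bins. SS long peaks stood at 1.26 and 1.23, beside 1.31 and 1.27.

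Considering all 9 other lists together, 664 WT long peaks (22.9%) and 2051 SS long peaks (25.2%) met none, against 30.9% and 33.9% under placement and 56.5% and 58.2% over all Ezh2 peaks of each list. No member met all 9. When the members were divided into 4 equal groups by -log10 q-value, the ratio for matched arrested H3K27me3 was 1.10, 1.26, 1.15 and 1.24 from the lowest to the highest WT group, and 1.24, 1.31, 1.37 and 1.29 in SS cells. For matched arrested pRb it was 1.16, 1.16, 1.24 and 1.12 in WT and 1.21, 1.09, 1.24 and 1.12 in SS cells. The ratios did not climb steadily with confidence for either list. The highest WT group held 21 of the 49 members shared with SS cells, whereas in the SS list the groups held 10, 20, 4 and 14 of the 48.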

How the data were processed

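Ezh2, H3K27me3 and pRb were immunoprecipitated from cross-linked fibroblast chromatin and sequenced. The submitters' processing notes name mm9 as the build and list bedtools, HOMER, MACS2 and Bowtie2. Their settings, versions and controls were not given in the sources used here. The authors deposited 1 peak list per library. The Ezh2 and H3K27me3 lists deposited by the authors give a score, a fold enrichment (a ratio) and a -log10 q-value per peak, and the deposited pRb lists give a score of unstated unit. These values are the authors' own and were used within a list only. A list's length and peak widths depend on depth, which is unknown, and on caller settings. The 10 input libraries were not analysed here.

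Length was end minus start. The share expected under random placement was computed exactly, without draws, as the share of allowed starts at which a peak of that length would overlap by at least 1 bp (above 200 lengths per chromosome, by linear interpolation). With an overlap of 50%, starts were taken every 500 bp. The even spread used each chromosome's number of long peaks. Placement does not account for mappability. Groups came from sample titles. Named members were, per genotype, the 5 longest, the 5 highest by -log10 q-value, by fold and by length within matched H3K27me3, the 5 fullest bins of 100 kb and the 5 pairs of largest shared length, and the leading ones are described. The members, lists and measures were chosen with earlier results of these data known. The overlap step was tested on simulated data. Computations ran in Python 3.11.15 with scipy 1.17.1, pandas 2.3.3 and numpy 2.4.6, and plots were drawn with matplotlib 3.10.9.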

Additional observations from a re-analysis of the deposited data

How the results depend on the processing

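The results below are the SS to WT number of long peaks and the 8 ratios to placement for sharing, neighbours within 10 kb, matched arrested H3K27me3 and matched arrested pRb. Leaving out the 1% of bins most covered over all 10 lists left the number ratio at 2.81 and the 8 ratios to placement on the same side and within their intervals. The higher 50% of members by -log10 q-value left 7 of the 8 ratios to placement so, with WT neighbours at 4.58; the number ratio is fixed by that setting. With a minimum of 1000 bp, which leaves 24 WT and 109 SS peaks, the number ratio was 4.54, sharing 564 in both directions on 2 peaks each, and neighbours 305 in WT and 77.6 in SS. H3K27me3 was then 1.51 and 1.64, and pRb 1.97 and 1.38. Merging Ezh2 peaks within 1 kb made another set, of 142138 WT and 239367 SS regions: number ratio 1.68, sharing 1.19 in both directions, H3K27me3 1.09 and 1.13, SS pRb 1.08 and SS neighbours 1.01. WT neighbours fell to 0.975, below an even spread. An overlap of 50% of the peak gave H3K27me3 1.40 in WT and pRb 2.19 and 1.45, and neighbours within 100 kb gave 1.32 and 1.09. With equal list sizes sharing was 6.09 and 5.87 and SS neighbours 2.18, values that may reflect the lengths in the SS subset as well as list size. Placement within 1 Mb gave sharing of 2.96 and 2.90, neighbours of 1.64 and 1.2 and SS H3K27me3 of 1.39. Leaving out the 1% of bins most covered by pRb, a setting chosen after seeing the data, gave sharing of 1.71 in both directions, neighbours of 1.29 and 1.25 and pRb of 1.05 and 1.12. Apart from the change of set, area or threshold itself, the cause was not tested. All results rest on 1 library per group, and depth could not be set equal.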

Other observations

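Ezh2 peaks of 500 bp or more on the sex chromosomes, which are no part of the sets above, numbered 58 on X and 32 on Y in WT cells and 145 on X and 42 on Y in SS cells.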
